A study of Mus musculus with 4 samples.

Results

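Messenger, ribosomal and transfer RNAs encoded by the mitochondrial genome were followed in cells from tumour grafts, labelled as enriched CD8+ T cells, the killer lymphocytes of the adaptive immune system. They are the genes whose Ensembl ID has a mouse GRCm38 symbol beginning with mt-, and 18 of the 36464 gene IDs in the deposited tables met this rule: 13 mRNAs, 2 rRNAs and 3 tRNAs. The annotation used here, GENCODE M21, holds 37 such genes, 22 of them tRNAs, and 19 of these tRNAs have no row and were not analysed here. The donors of the cells were male wild-type C57BL/6 mice bearing percutaneous grafts, treated for 2 weeks by injection into the peritoneum with an antibody against SIGLEC15, a sialic acid-binding lectin studied as an immune checkpoint molecule, or with control IgG. Grafts of 6 mice per treatment were collected on day 19, and 3 cell pellets were mixed for each library, which gave 2 anti-SIGLEC15 libraries and 2 IgG libraries. The labels name neither the grafted tumour line nor the enrichment gate nor the antibody doses, and all groups carried a graft, so no cells from tumour-free mice stand beside them. An SD or p over these libraries measures the spread between pools, not between mice. The question addressed by the study is what blocking SIGLEC15 does to CD8+ T cells inside a tumour, and mitochondrial RNA was not the stated aim.

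The mitochondrial genome codes for core subunits of the respiratory chain and of ATP synthase, together with the rRNAs and tRNAs that translate them inside the organelle. Both of its strands are transcribed as long precursors by the polymerase POLRMT with TFAM and TFB2M, and the precursors are cut at the tRNAs that punctuate them by RNase P and by the 3′-end nuclease ELAC2. Most mitochondrial mRNAs then receive a short poly(A) tail, so that they enter libraries made by poly(A) selection, as these were. In T cells, activation expands the mitochondrial network, which supplies ATP and precursors for growth.

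Of the mRNAs, 7 code for complex I (NADH dehydrogenase), 1 for complex III (cytochrome b), 3 for complex IV (cytochrome c oxidase) and 2 for complex V (ATP synthase). All but 1 lie on the plus strand of the reference, mt-Nd6 being on the minus strand. Neighbouring genes overlap by 43 bases between mt-Atp8 and mt-Atp6 and by 7 bases between mt-Nd4l and mt-Nd4, and each of these pairs is known to share 1 mature transcript in mammals. The sequences below (GENCODE M21 transcripts on GRCm38, 5′ to 3′) are those on which the readings turn. The mt-Nd4l transcript (chrMT:9877-10173, plus strand, 297 bases) is shown because capitals, bases 1 to 294, mark what it shares with Gm10222, a pseudogene on nuclear chromosome 1. For mt-Atp8 (chrMT:7766-7969, plus strand, 204 bases), the weakest mRNA, capitals mark bases 162 to 204, the stretch that is also the start of mt-Atp6. For mt-Tp (chrMT:15356-15422, minus strand, 67 bases), the proline tRNA and the only tRNA with reads among the 3 tabulated, capitals mark the anticodon, bases 31 to 33.
mt-Nd4l: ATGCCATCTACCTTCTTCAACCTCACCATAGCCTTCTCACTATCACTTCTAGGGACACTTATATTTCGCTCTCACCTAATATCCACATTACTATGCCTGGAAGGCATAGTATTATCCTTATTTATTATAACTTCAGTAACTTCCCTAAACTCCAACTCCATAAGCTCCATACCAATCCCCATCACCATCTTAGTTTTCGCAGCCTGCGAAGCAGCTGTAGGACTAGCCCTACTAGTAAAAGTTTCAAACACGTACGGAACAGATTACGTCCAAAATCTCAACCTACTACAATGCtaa
mt-Atp8: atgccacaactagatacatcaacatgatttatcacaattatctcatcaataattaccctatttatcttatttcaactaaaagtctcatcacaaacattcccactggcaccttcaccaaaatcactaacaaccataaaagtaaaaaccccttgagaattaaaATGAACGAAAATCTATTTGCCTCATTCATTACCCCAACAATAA
mt-Tp: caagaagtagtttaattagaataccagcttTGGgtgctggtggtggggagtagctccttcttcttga

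Counted reads numbered between 14854802 and 16026197 per library, recovered from the deposited values, which are read as RPKM (reads scaled to exon length and to the library's counted reads). The label was checked against markers. The 10 T cell markers, Cd3d, Cd8a, Cd8b1, Trac and others, summed to 4131 and 4192 RPKM in anti-SIGLEC15 libraries 1 and 2, against 1343 and 4148 RPKM in IgG libraries 1 and 2, so IgG library 1 stood apart. The 10 hepatocyte markers, Alb, Afp and others, summed to 2521 and 1242 RPKM in anti-SIGLEC15 libraries 1 and 2, against 5890 and 1193 RPKM in IgG libraries 1 and 2. In IgG library 1 the hepatocyte markers thus exceeded the T cell markers in sum. The 6 neutrophil markers summed to 214 and 367 RPKM in anti-SIGLEC15 libraries 1 and 2, against 841 and 67.4 RPKM in IgG libraries 1 and 2. The 7 macrophage markers lay between 27.9 and 36.0 RPKM in sum. The 5 red cell genes, globins and Alas2, summed to 113 and 19.9 RPKM in anti-SIGLEC15 libraries 1 and 2, against 691 and 1929 RPKM in IgG libraries 1 and 2. Each was lower in both anti-SIGLEC15 libraries, against 6.02% of all tested genes (median log2 fold change -4.42, 0 called by limma). These 5 genes mark 1 cell type and are not independent observations. The 4 B cell, 3 endothelial and 4 fibroblast markers summed to at most 2.75 RPKM in any library. No list of another cell type has a marker at 0 in all 4 libraries. In bulk RNA, more or fewer cells of a type and more or less RNA per cell cannot be told apart.

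As a share of counted reads, the 18 genes together stood at 8.91% and 18.4% in anti-SIGLEC15 libraries 1 and 2, against 11.9% and 12.96% in IgG libraries 1 and 2. The anti-SIGLEC15 libraries thus held both the lowest and the highest share, with the IgG libraries between them. Their means were 13.6 ± 6.69% with anti-SIGLEC15 and 12.4 ± 0.769% with IgG (SD, n = 2 each). The difference of the mean log2 shares, which is how log2 ratios and fold changes are computed throughout, was 0.04 (exact permutation test, two-sided, p = 1.0, where 2 against 2 can reach no less than 0.333). Counting error was small beside this spread: the Wilson 95% interval ran from 8.90 to 8.92% in anti-SIGLEC15 library 1 and from 18.3 to 18.4% in anti-SIGLEC15 library 2, and it covers counting error only. The gap lay between pools of the same treatment: the share was 2.06 times as high in anti-SIGLEC15 library 2 as in anti-SIGLEC15 library 1, against 1.09 times in IgG library 2 over IgG library 1. The sign of the log2 ratio rested on single libraries, since it was 0.57 without anti-SIGLEC15 library 1, -0.48 without anti-SIGLEC15 library 2 and -0.02 without IgG library 1.

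The 3 RNA classes followed the same order of libraries with different spans. The mRNAs took 8.39% and 16.03% of counted reads in anti-SIGLEC15 libraries 1 and 2, against 10.9% and 11.8% in IgG libraries 1 and 2. The rRNAs took 0.512% and 2.32% in anti-SIGLEC15 libraries 1 and 2, against 0.959% and 1.13% in IgG libraries 1 and 2. As a ratio of anti-SIGLEC15 library 2 to anti-SIGLEC15 library 1 this was 4.54 for the rRNAs and 1.91 for the mRNAs. The tRNA mt-Tp took 0.010% and 0.017% in anti-SIGLEC15 libraries 1 and 2, against 0.011% and 0.013% in IgG libraries 1 and 2. Among mitochondrial reads alone, rRNA made up 5.74% and 12.6% in anti-SIGLEC15 libraries 1 and 2, against 8.08% and 8.73% in IgG libraries 1 and 2.

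**Figure D1:**
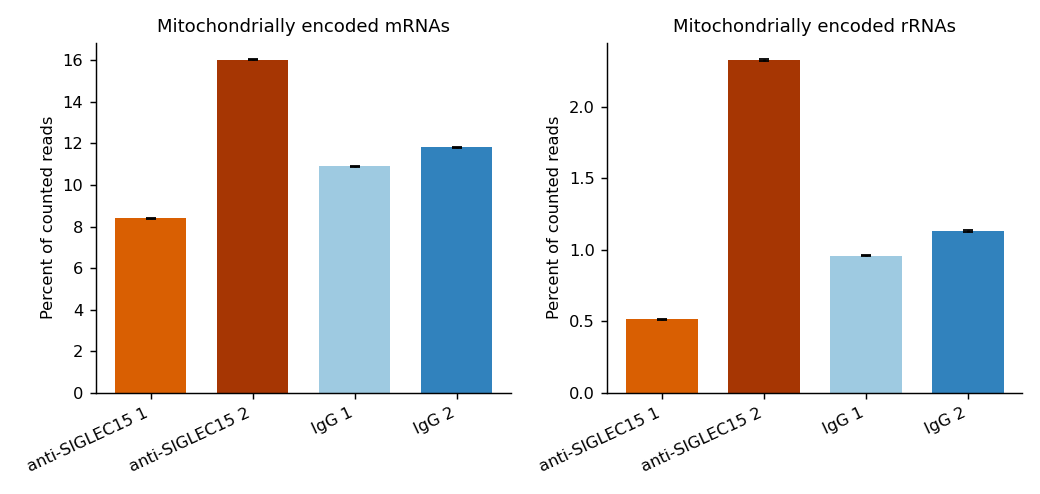
Percent of counted reads in mitochondrially encoded mRNAs (left) and rRNAs (right), 1 bar per library, with Wilson 95% intervals for counting error. In both panels anti-SIGLEC15 library 2 is highest (16.03% and 2.32%) and anti-SIGLEC15 library 1 lowest (8.39% and 0.512%), with the IgG libraries between.

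Across the whole table, limma called 0 of 12484 tested genes (0%) at an adjusted p under 0.05, and 146 (1.17%) had an unadjusted p under 0.05. The 16 mitochondrial genes that passed the filter of 1 RPKM in at least 2 libraries had 0 calls, with an adjusted p of 0.9999 for each and unadjusted p between 0.4345 and 0.9899. Both anti-SIGLEC15 libraries lay above both IgG libraries for 0 of the 16, against 1511 of all tested genes (12.1%), and below them for 0 of the 16, against 752 (6.02%). The median log2 fold change of the 13 mRNAs, anti-SIGLEC15 over IgG, was 0.04, beside 0.02 over all tested genes. What the 16 had in common was the order of the libraries. Anti-SIGLEC15 library 1 was lowest and anti-SIGLEC15 library 2 highest for 16 of 16, an order found in 167 of the 12484 tested genes (1.34%). These genes share a genome, precursors and libraries, so the 16 are not independent observations. RPKM of the mRNAs were 1.46 to 13.7 times as high in anti-SIGLEC15 library 2 as in anti-SIGLEC15 library 1, with a median of 1.77, beside a median of 0.85 for RPKM + 1 over all tested genes. Between the IgG libraries, the ratio of library 2 to library 1 ran from 0.52 to 1.45 for the mRNAs with a median of 1.05, beside 1.06 for RPKM + 1 over all tested genes.

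**Figure D2:**
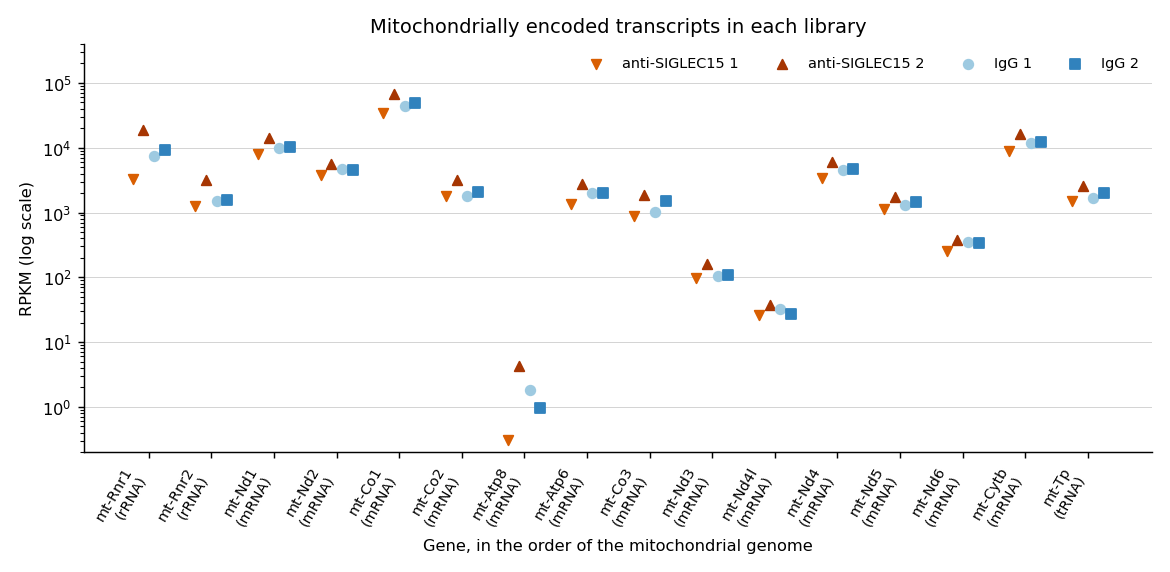
RPKM (log scale) of the 16 mitochondrially encoded genes that passed the filter, in the order of the mitochondrial genome, with 1 point per library. For each gene the upward triangle of anti-SIGLEC15 library 2 is the highest point and the downward triangle of anti-SIGLEC15 library 1 the lowest.

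Complex IV supplied most of the mitochondrial mRNA reads, because of mt-Co1, the catalytic subunit that reduces oxygen. mt-Co1 measured 33980 and 67950 RPKM in anti-SIGLEC15 libraries 1 and 2, against 44540 and 49280 RPKM in IgG libraries 1 and 2. It ranked first among all genes in each of the 4 libraries and alone held 5.25% and 10.5% of counted reads in anti-SIGLEC15 libraries 1 and 2, against 6.88% and 7.62% in IgG libraries 1 and 2. With means of 50960 ± 24020 RPKM with anti-SIGLEC15 and 46910 ± 3357 RPKM with IgG (SD, n = 2 each), its log2 fold change was 0.04 (SE 0.35), smaller than its error. The other core subunits, mt-Co2, which carries the copper centre that accepts electrons from cytochrome c, and mt-Co3, lay far lower. mt-Co2 measured 1770 and 3128 RPKM in anti-SIGLEC15 libraries 1 and 2, against 1823 and 2080 RPKM in IgG libraries 1 and 2 (log2 fold change 0.27, SE 0.32). For mt-Co3 the values were 875 and 1873 RPKM in anti-SIGLEC15 libraries 1 and 2, against 1035 and 1498 RPKM in IgG libraries 1 and 2 (log2 fold change 0.04, SE 0.43). For all 3 subunits the IgG values lay inside the span of the anti-SIGLEC15 values.

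Cytochrome b, the complex III subunit that handles ubiquinol, was the next most abundant mRNA. mt-Cytb measured 8785 and 16390 RPKM in anti-SIGLEC15 libraries 1 and 2, against 11770 and 12320 RPKM in IgG libraries 1 and 2. The means, 12590 ± 5377 RPKM with anti-SIGLEC15 and 12050 ± 385 RPKM with IgG (SD, n = 2 each), were slightly higher with anti-SIGLEC15, while the log2 fold change, a difference of mean logs, was -0.01 (SE 0.33), so its sign differs and both lie within the spread. The IgG libraries differed by far less than the anti-SIGLEC15 libraries, in which the transcript was 1.87 times as high in library 2 as in library 1.

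Complex I mRNAs code for subunits of the membrane arm that pumps protons, and their levels ranged widely. mt-Nd1 measured 7911 and 13970 RPKM in anti-SIGLEC15 libraries 1 and 2, against 9968 and 10330 RPKM in IgG libraries 1 and 2 (log2 fold change 0.05, SE 0.30). mt-Nd4 measured 3456 and 6127 RPKM in anti-SIGLEC15 libraries 1 and 2, against 4516 and 4752 RPKM in IgG libraries 1 and 2 (log2 fold change -0.01, SE 0.31). mt-Nd2 measured 3778 and 5546 RPKM in anti-SIGLEC15 libraries 1 and 2, against 4724 and 4456 RPKM in IgG libraries 1 and 2 (log2 fold change -0.00, SE 0.24). These 3 were the strongest of the complex, and none of their differences between treatments exceeded its SE. mt-Nd5, the outermost pumping subunit, measured 1142 and 1764 RPKM in anti-SIGLEC15 libraries 1 and 2, against 1317 and 1453 RPKM in IgG libraries 1 and 2 (log2 fold change 0.04, SE 0.27). mt-Nd3 measured 98.7 and 158 RPKM in anti-SIGLEC15 libraries 1 and 2, against 104 and 109 RPKM in IgG libraries 1 and 2 (log2 fold change 0.23, SE 0.32). mt-Nd4l was at 25.7 and 37.6 RPKM in anti-SIGLEC15 libraries 1 and 2, against 32.1 and 26.9 RPKM in IgG libraries 1 and 2 (log2 fold change 0.08, SE 0.31). In each of these genes the IgG libraries again lay between the anti-SIGLEC15 libraries.

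mt-Nd6 is the single mRNA of the opposite strand, and its human counterpart is known to lack a poly(A) tail. It measured 255 and 383 RPKM in anti-SIGLEC15 libraries 1 and 2, against 345 and 338 RPKM in IgG libraries 1 and 2 (log2 fold change -0.13, SE 0.28). Its share of mitochondrial mRNA reads was 0.158% and 0.124% in anti-SIGLEC15 libraries 1 and 2, against 0.164% and 0.148% in IgG libraries 1 and 2. Per length, mt-Nd5, its neighbour on the other strand, with which it overlaps by 14 bases, exceeded it by 3.82 to 4.61 times. No source used here says whether reads were assigned by strand, so reads of the overlap cannot be told apart.

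The complex V genes differed widely in level. mt-Atp6, the subunit that lets protons through the membrane, measured 1356 and 2760 RPKM in anti-SIGLEC15 libraries 1 and 2, against 2001 and 2005 RPKM in IgG libraries 1 and 2 (log2 fold change -0.05, SE 0.37). mt-Atp8, a small accessory subunit, had 1 and 13 reads in anti-SIGLEC15 libraries 1 and 2, against 6 and 3 reads in IgG libraries 1 and 2. These counts correspond to 0.312 and 4.29 RPKM in anti-SIGLEC15 libraries 1 and 2, against 1.84 and 0.948 RPKM in IgG libraries 1 and 2 (log2 fold change 0.16, SE 0.72). With so few reads a difference between treatments in mt-Atp8 was not detectable at this depth. On their shared transcript, mt-Atp6 exceeded mt-Atp8 per length by 644 times in anti-SIGLEC15 library 2 and by 1090 times in IgG library 1, where mt-Atp8 had more than 3 reads, and on the other shared transcript mt-Nd4 exceeded mt-Nd4l by 134 to 177 times.

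The rRNAs spread more between the anti-SIGLEC15 pools than all mRNAs but mt-Atp8. mt-Rnr1, the RNA of the small ribosomal subunit, measured 3254 and 19090 RPKM in anti-SIGLEC15 libraries 1 and 2, against 7584 and 9224 RPKM in IgG libraries 1 and 2. The means were 11170 ± 11200 RPKM with anti-SIGLEC15 and 8404 ± 1160 RPKM with IgG (SD, n = 2 each), while the log2 fold change was -0.09 (SE 0.83); the mean and the log2 value differ in sign, and the spread exceeds both. mt-Rnr2, the RNA of the large subunit, measured 1269 and 3155 RPKM in anti-SIGLEC15 libraries 1 and 2, against 1486 and 1578 RPKM in IgG libraries 1 and 2 (log2 fold change 0.39, SE 0.46). Anti-SIGLEC15 library 2 thus exceeded anti-SIGLEC15 library 1 by 5.87 times for mt-Rnr1 and by 2.49 times for mt-Rnr2, against 1.77 times for the median mRNA. The pair did not keep a fixed proportion: mt-Rnr1 was 2.56 and 6.05 times as high as mt-Rnr2 per length in anti-SIGLEC15 libraries 1 and 2, against 5.11 and 5.85 times in IgG libraries 1 and 2. Relative to mt-Cytb, mt-Rnr1 stood at 0.371 and 1.17 in anti-SIGLEC15 libraries 1 and 2, against 0.644 and 0.749 in IgG libraries 1 and 2. Poly(A) selection retains rRNA poorly, and how evenly it did so across these libraries was not tested.

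Of the 3 tRNAs with a row, mt-Tp had 1589 and 2539 reads in anti-SIGLEC15 libraries 1 and 2, against 1809 and 2080 reads in IgG libraries 1 and 2. This was 1511 and 2551 RPKM in anti-SIGLEC15 libraries 1 and 2, against 1685 and 2001 RPKM in IgG libraries 1 and 2 (log2 fold change 0.10, SE 0.31). mt-Tc (cysteine) and mt-Te (glutamate) had 0 reads in each library, and 3 reads would correspond to between 2.71 and 3.06 RPKM, so expression up to that level was not detectable at this depth. All 3 are annotated on the minus strand, and mt-Tp is the tRNA that follows mt-Cytb on the opposite strand.

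The order of the mRNAs by RPKM was nearly the same in every library. By the mean over the 4 libraries it ran mt-Co1, mt-Cytb, mt-Nd1, mt-Nd4, mt-Nd2, mt-Co2, mt-Atp6, mt-Nd5, mt-Co3, mt-Nd6, mt-Nd3, mt-Nd4l and mt-Atp8, with means between 48940 RPKM at the top and 1.85 RPKM at the bottom. The rank was identical in all 4 libraries for 7 of the 13, namely mt-Co1, mt-Cytb and mt-Nd1 at the top and mt-Nd6, mt-Nd3, mt-Nd4l and mt-Atp8 at the bottom. The other 6 exchanged places within pairs of neighbours. mt-Nd2 stood above mt-Nd4 in anti-SIGLEC15 library 1 and IgG library 1 and below it in anti-SIGLEC15 library 2 and IgG library 2, and mt-Nd5 and mt-Co3 changed places in the same libraries. mt-Atp6 stood above mt-Co2 in IgG library 1 alone. Of the 12 neighbouring pairs in the mean order, 7 had ranges over the libraries that did not overlap, and 5 overlapped: mt-Cytb with mt-Nd1, mt-Nd4 with mt-Nd2, mt-Co2 with mt-Atp6, mt-Atp6 with mt-Nd5, and mt-Nd5 with mt-Co3. Spearman correlations between libraries over the 13 genes lay between 0.984 and 1, a description over genes that share a library and a counting scheme. The rRNAs were less fixed in this order, since mt-Rnr1 had ranks 6 and 2 among the 16 genes in anti-SIGLEC15 libraries 1 and 2, against ranks 4 and 4 in IgG libraries 1 and 2. Of the 20 genes with the highest RPKM, 6 and 10 were mitochondrial in anti-SIGLEC15 libraries 1 and 2, against 7 and 8 in IgG libraries 1 and 2.

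Setting each mRNA against the sum of mitochondrial mRNA reads removes the level common to a library. The shares add to a fixed total, so they are not independent of each other. mt-Co1 alone held 62.6% and 65.5% of these reads in anti-SIGLEC15 libraries 1 and 2, against 63.1% and 64.5% in IgG libraries 1 and 2. Complex I held 22.1% and 19.4% of these reads in anti-SIGLEC15 libraries 1 and 2, against 21.4% and 20.3% in IgG libraries 1 and 2. Complex IV held 64.8% and 67.8% in anti-SIGLEC15 libraries 1 and 2, against 65.0% and 66.7% in IgG libraries 1 and 2. Complex III stayed between 11.7 and 12.4% and complex V between 1.10 and 1.25% over the libraries, while the mRNA total itself was 1.91 times as high in anti-SIGLEC15 library 2 as in anti-SIGLEC15 library 1. For 2 of the 13 mRNAs the shares of the treatments did not overlap, and both were higher with anti-SIGLEC15. By RPKM rather than by this share, 12.1% of all tested genes lay higher in both anti-SIGLEC15 libraries and 6.02% lower. A matching rate for such shares was not computed, so whether this count is unusual cannot be said. mt-Co2 made up 1.44% and 1.34% of mitochondrial mRNA reads in anti-SIGLEC15 libraries 1 and 2, against 1.14% and 1.20% in IgG libraries 1 and 2 (log2 ratio 0.24, exact permutation p = 0.333, two-sided, the smallest possible). mt-Nd3 made up 0.041% and 0.034% in anti-SIGLEC15 libraries 1 and 2, against 0.033% and 0.032% in IgG libraries 1 and 2 (log2 ratio 0.20, exact permutation p = 0.333, two-sided), and the Wilson intervals of anti-SIGLEC15 library 2 and IgG library 1 overlap. With 13 shares compared, neither p passes any threshold, with or without adjustment. Both genes are almost wholly present in nuclear pseudogenes, and the set changed once the reads of the copies were added to their genes. mt-Co2 then still stood higher, with 2.03% and 2.01% in anti-SIGLEC15 libraries 1 and 2, against 1.80% and 1.79% in IgG libraries 1 and 2. The shares of mt-Nd3 then overlapped, with 0.0694% and 0.0558% in anti-SIGLEC15 libraries 1 and 2, against 0.0584% and 0.0538% in IgG libraries 1 and 2. mt-Atp6 instead came to lie lower with anti-SIGLEC15, with 2.39% and 2.64% in anti-SIGLEC15 libraries 1 and 2, against 2.77% and 2.75% in IgG libraries 1 and 2.

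A stretch of the mitochondrial genome is present on nuclear chromosome 1, where 7 annotated pseudogenes lie between 24611535 and 24616197 on the minus strand of GRCm38. The share of a gene's 100-base windows found exactly in a nuclear transcript was 99.9% for mt-Co3 (in Gm28437), 99.5% for mt-Co2 (in Gm28661), 99.5% for mt-Atp6 (in Gm10925), 98.5% for mt-Nd4l (in Gm10222) and 97.6% for mt-Nd3 (in Gm28438). It was 60.8% for mt-Nd4 (Gm28439), 30.8% for mt-Co1 (chiefly Gm29216) and 3.2% for mt-Nd2 (Gm13339 on chromosome 2). No such window was found for mt-Nd1, mt-Nd5, mt-Nd6, mt-Cytb, mt-Atp8, mt-Rnr1 or mt-Rnr2. With 50-base windows the share was 51.1% for mt-Co1, 62.2% for mt-Nd4, 8.2% for mt-Nd2, 7.6% for mt-Nd5 and 1.0% for mt-Rnr2, at least 98.0% for the 5 nearly wholly copied genes, and 0 for mt-Nd1, mt-Nd6, mt-Cytb, mt-Atp8 and mt-Rnr1. In the printed mt-Nd4l transcript, a read of that length lying within the capitals has the same letters in both places.

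For the genes over 90% copied, reads counted in the mitochondrial gene and reads counted in its nuclear copy were of similar size. The ratio of gene to copy reads was 1.09 and 1.25 for mt-Co3 in anti-SIGLEC15 libraries 1 and 2, against 1.01 and 1.27 in IgG libraries 1 and 2. It was 0.80 and 0.75 for mt-Atp6 in anti-SIGLEC15 libraries 1 and 2, against 0.77 and 0.68 in IgG libraries 1 and 2, so the copy held more reads than the gene in each library. The ratio ran from 1.59 to 2.21 for mt-Co2, from 1.20 to 1.45 for mt-Nd3 and from 0.93 to 1.37 for mt-Nd4l. The partly copied genes far exceeded their copies, by 51.2 to 61.9 times in reads for mt-Nd4 and by 93.7 to 129 times for mt-Co1. All 8 copies had the library order of the mitochondrial genes, for example 1697 and 3701 RPKM for Gm10925 in anti-SIGLEC15 libraries 1 and 2, against 2616 and 2970 RPKM in IgG libraries 1 and 2. Together the 8 copies took 0.286% and 0.620% of counted reads in anti-SIGLEC15 libraries 1 and 2, against 0.407% and 0.455% in IgG libraries 1 and 2. Gm13340, another mitochondrial pseudogene on chromosome 2, measured 53.6 and 126 RPKM in anti-SIGLEC15 libraries 1 and 2, against 75.6 and 80.6 RPKM in IgG libraries 1 and 2. No source used here says how reads matching both places were counted, so levels of copied genes, and their places in the order above, are uncertain.

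The 5 genes over 90% copied had mean levels between 30.6 and 2200 RPKM with a median of 1320, and the 6 genes under 5% copied by 100-base windows lay between 1.85 and 12320 RPKM with a median of 3023. The ranges overlap, and mt-Atp8 is the weakest mRNA although no annotated nuclear transcript holds any of its windows. On chromosome 1, 233 bases with no annotated transcript (24614652 to 24614884) separate Gm10925 from Gm28661, where the mitochondrial genome has 230 bases between mt-Co2 and mt-Atp6, a stretch that includes most of mt-Atp8. No genome sequence was used here, so whether that stretch resembles mt-Atp8 was not tested. Adding each copy's reads to its gene gave a median log2 fold change of the mRNAs of 0.02 and left the count of calls at 0. In the mean order with copies added, the neighbouring pairs whose ranges did not overlap fell from 7 to 5.

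**Figure D3:**
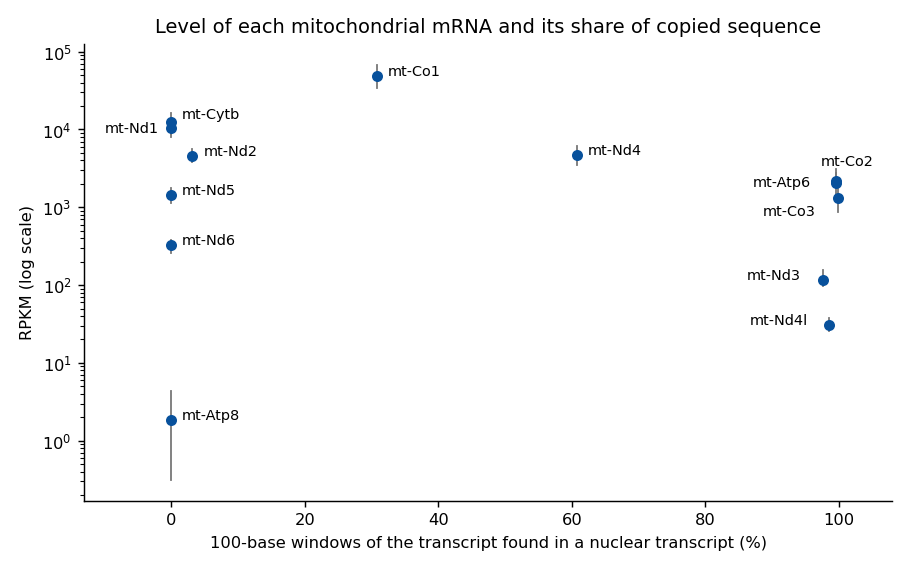
Mean RPKM over the 4 libraries (points, log scale; vertical lines span the lowest to the highest library) of the 13 mitochondrial mRNAs against the percent of their 100-base windows found in an annotated nuclear transcript. The 5 genes over 90% copied have means at or under 2200 RPKM, and mt-Atp8, with no copied window, is the lowest point at 1.85 RPKM.

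Nuclear genes that make or use these RNAs were set beside them. Of 38 nuclear genes for subunits of the respiratory chain and ATP synthase, 0 had anti-SIGLEC15 library 1 lowest and anti-SIGLEC15 library 2 highest, which is near the 1.34% of all tested genes. Limma called 0 of the 38, 5 lay higher in both anti-SIGLEC15 libraries and 6 lay lower, beside 12.1% and 6.02% of all tested genes, and the median log2 fold change was -0.03. Their geometric mean was 57.4 and 51.2 RPKM in anti-SIGLEC15 libraries 1 and 2, against 52.3 and 55.5 RPKM in IgG libraries 1 and 2, and that of the 13 mitochondrial mRNAs was 811 and 1495 RPKM in anti-SIGLEC15 libraries 1 and 2, against 1049 and 1071 RPKM in IgG libraries 1 and 2. Cox4i1, a nuclear subunit of complex IV, measured 185 and 174 RPKM in anti-SIGLEC15 libraries 1 and 2, against 186 and 183 RPKM in IgG libraries 1 and 2. Atp5a1, the alpha subunit of ATP synthase, measured 35.9 and 27.2 RPKM in anti-SIGLEC15 libraries 1 and 2, against 42.5 and 34.0 RPKM in IgG libraries 1 and 2. In these 2 genes anti-SIGLEC15 library 2, in which the mitochondrial RNAs peaked, had the lowest RPKM of the 4. The totals behind RPKM include mitochondrial reads, so a higher mitochondrial share lowers the RPKM of every other gene. Reads outside the mitochondrial genes were a fraction of 0.911 and 0.816 in anti-SIGLEC15 libraries 1 and 2, against 0.881 and 0.87 in IgG libraries 1 and 2. The library order of the nuclear genes without mitochondrial reads in the total was not computed. Among 18 further genes of mitochondrial mass, such as the outer-membrane channels, 0 were called and 1, Vdac2, was lower in both anti-SIGLEC15 libraries, against 6.02% of all tested genes (median log2 fold change -0.14).

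**Figure D4:**
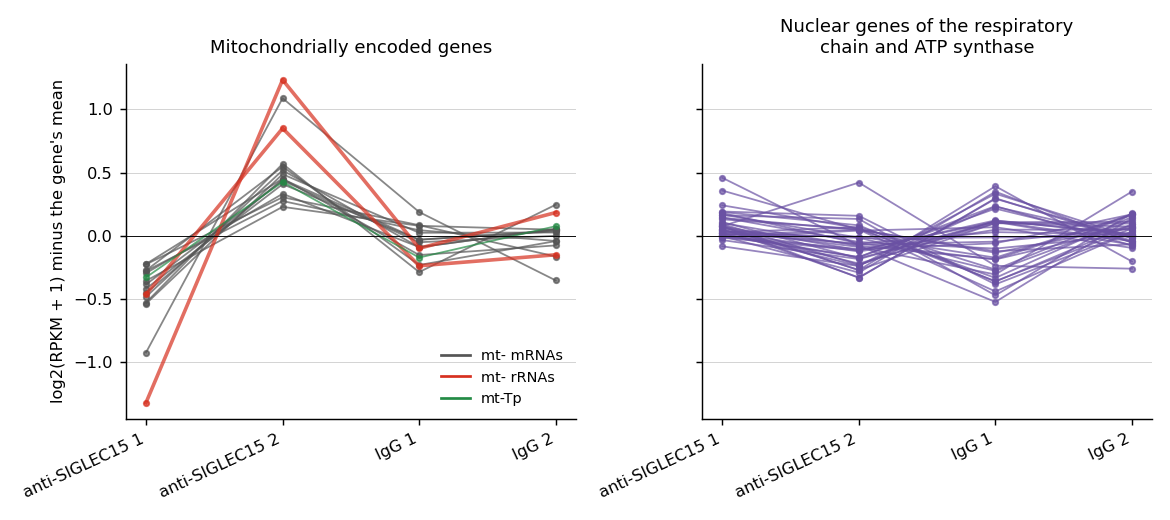
log2(RPKM + 1) of each gene minus its mean over the 4 libraries, 1 line per gene, for the 16 mitochondrially encoded genes (left) and 38 nuclear genes of the respiratory chain and ATP synthase (right). The left-hand lines all have their lowest point in anti-SIGLEC15 library 1 and their highest in anti-SIGLEC15 library 2, an order shown by 0 of the 38 nuclear genes and by 1.34% of all tested genes.

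Of the 16 tested genes for mitochondrial transcription, limma called 0, while both anti-SIGLEC15 libraries lay above both IgG libraries for 5 and below them for 0, beside 12.1% and 6.02% of all tested genes, with a median log2 fold change of 0.16. The 5 were Tfam, which packages and helps transcribe the genome, Tfb2m, an initiation factor, and Mterf1a, Mterf2 and Mterf3 of the termination factor family. Tfam measured 8.61 and 7.27 RPKM in anti-SIGLEC15 libraries 1 and 2, against 7.16 and 6.96 RPKM in IgG libraries 1 and 2 (log2 fold change 0.15, SE 0.27). Tfb2m measured 6.02 and 5.95 RPKM in anti-SIGLEC15 libraries 1 and 2, against 3.81 and 5.63 RPKM in IgG libraries 1 and 2 (log2 fold change 0.31, SE 0.30). For Tfam the gap was small: the nearest values of the treatments, 7.27 RPKM with anti-SIGLEC15 and 7.16 RPKM with IgG, differed by less than either pair of replicates. Mterf1a measured 1.93 and 1.63 RPKM in anti-SIGLEC15 libraries 1 and 2, against 0.595 and 0.902 RPKM in IgG libraries 1 and 2 (log2 fold change 0.67, SE 0.32), a gap wider than the difference within either pair, with an adjusted p of 0.9999 by limma. Its levels are uncertain where reads are shared with the closely related Mterf1b. Polrmt, the polymerase, measured 4.09 and 3.19 RPKM in anti-SIGLEC15 libraries 1 and 2, against 4.05 and 3.10 RPKM in IgG libraries 1 and 2. Tefm, an elongation factor, measured 3.41 and 1.76 RPKM in anti-SIGLEC15 libraries 1 and 2, against 3.26 and 2.26 RPKM in IgG libraries 1 and 2. Both were lower in anti-SIGLEC15 library 2 than in anti-SIGLEC15 library 1, the direction of most genes: 2776 of the 12484 tested genes (22.2%) were higher in anti-SIGLEC15 library 2.

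Of the 26 tested genes for processing and stability of mitochondrial RNA, 0 were called, and both anti-SIGLEC15 libraries lay above both IgG libraries for 0 and below them for 1 (12.1% and 6.02% of all tested genes), Hsd17b10, a subunit of mitochondrial RNase P. The median log2 fold change was 0.00. Elac2 measured 12.9 and 9.50 RPKM in anti-SIGLEC15 libraries 1 and 2, against 10.5 and 11.03 RPKM in IgG libraries 1 and 2. Trmt10c, a subunit of mitochondrial RNase P, measured 12.1 and 9.51 RPKM in anti-SIGLEC15 libraries 1 and 2, against 7.44 and 11.02 RPKM in IgG libraries 1 and 2. Lrpprc, which binds and stabilises mitochondrial mRNAs and promotes their polyadenylation, measured 6.11 and 3.35 RPKM in anti-SIGLEC15 libraries 1 and 2, against 8.15 and 4.78 RPKM in IgG libraries 1 and 2 (log2 fold change -0.39, SE 0.40). In all 3 genes anti-SIGLEC15 library 1 exceeded anti-SIGLEC15 library 2, as in most tested genes. Slirp, the partner of LRPPRC, was at or under 0.0434 RPKM in each library, and its locus overlaps 2 other annotated genes, Alkbh1 and Snw1, so its count is uncertain. Ppargc1a, a coactivator of mitochondrial biogenesis, was at or under 0.152 RPKM in each library and was not tested. The list for copying mitochondrial DNA had 1 of 12 tested genes that lay higher with anti-SIGLEC15 by this measure and 0 lower, and the list for mitochondrial translation had 1 of 14 higher and 1 lower, with 0 calls in either, counts near the 12.1% and 6.02% of all tested genes.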

How the data were processed

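Poly(A) RNA was selected with oligo-coated beads and sequenced on DNBSEQ-G50, per the labels' protocols. The deposited values carry no unit name and are read as RPKM computed by the authors, since value times GENCODE M21 exon length gave whole multiples of 1 step per library for 98.92 to 98.97% of genes under 1000 reads (tolerance 0.02). That step gave counted reads. Builds GRCm38 and mm10 come from the submitters' processing notes. No source used here states the aligner, read length, strandedness or treatment of multiply matching reads.

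The titles gave each library its treatment. limma (trend, robust) was run on log2(RPKM + 1), which understates changes of low genes, for genes reaching 1 RPKM in 2 or more libraries, adjusted by Benjamini-Hochberg with a threshold of 0.05, and the procedure was tested on simulated data. Shares were compared by exact permutation. RPKM are printed to at most 4 significant digits. Windows of 100 bases were matched on both strands to GENCODE M21 transcripts.

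The members, gene lists and the rule for named genes were chosen with earlier results of these data known. The rule names each mitochondrial mRNA and rRNA, mt- tRNAs with at least 200 reads, mitochondrial pseudogenes of at least 5 RPKM, 12 genes of the lists, and the 5 nuclear genes nearest in profile; other list members that were counted are named after their values were seen. Alternatives were other filters, a pseudocount of 0.1, other scalings, limma-voom on recovered reads, a replicate block, each library left out, and nuclear copies added to their genes, the last chosen after seeing the data. limma 3.58.1 ran in R 4.3.3, and Python 3.11.15 was used with scipy 1.17.1, numpy 2.4.6, matplotlib 3.10.9 and pandas 2.3.3.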

Additional observations from a re-analysis of the deposited data

How the results depend on the processing

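With 2 libraries per treatment, single pools set most values. The number of genes called, 0, was 0 to 2251 with a library left out (135 without IgG library 1, 2251 without IgG library 2, of which 0 were mitochondrial) and 0 under each other alternative. The log2 ratio of the mitochondrial share, 0.04, ran from -0.48 to 0.57 with a library left out. The median log2 fold change of the mRNAs, 0.04, ran from -0.39 to 0.46 with a library left out and was -0.71 under scaling to T cell markers, which moved the median of all genes to -0.62. With a library left out, the mitochondrial genes higher with anti-SIGLEC15 numbered 0 to 16 (16 without anti-SIGLEC15 library 1), those lower 0 to 15 (15 without anti-SIGLEC15 library 2), and the mRNA shares that did not overlap, 2, numbered 4 to 10. The 16 and 15 are all the mitochondrial genes that passed the filter in those settings. They follow from anti-SIGLEC15 library 1 being lowest and anti-SIGLEC15 library 2 highest for these genes. Fewer libraries separate more easily, and the matching shares of all tested genes were not computed. Neighbouring pairs in the mean order of the mRNAs whose ranges did not overlap, 7, numbered 7 to 8 with a library left out and 5 with copies added.

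Of 158 values of single mitochondrial genes under alternatives other than a left-out library, 22 changed sign, each within its error of 0 in the main analysis. Under T cell marker scaling these were mt-Rnr2 at -0.36, mt-Nd1 at -0.70, mt-Co1 at -0.71, mt-Co2 at -0.48, mt-Atp8 at -0.36, mt-Co3 at -0.71, mt-Nd3 at -0.51, mt-Nd4l at -0.65, mt-Nd5 at -0.71 and mt-Tp at -0.65. Under median-of-ratios scaling they were mt-Nd1 at -0.01, mt-Co1 at -0.03, mt-Co3 at -0.02 and mt-Nd5 at -0.03. Under limma-voom they were mt-Co1 at -0.01, mt-Co3 at 0.00, mt-Nd4l at 0.00 and mt-Nd5 at -0.01. With totals without mitochondrial genes they were mt-Nd2 at 0.02, mt-Nd4 at 0.01 and mt-Cytb at 0.02, and with a pseudocount of 0.1 mt-Atp8 at -0.08. The cause was not tested. Leaving out a library gave ranges of -1.36 to 1.19 for mt-Rnr1, -0.27 to 1.04 for mt-Rnr2, -0.36 to 0.46 for mt-Nd1, -0.28 to 0.27 for mt-Nd2, -0.46 to 0.54 for mt-Co1, -0.14 to 0.68 for mt-Co2, -0.11 to 1.17 for mt-Atp8, -0.56 to 0.46 for mt-Atp6, -0.51 to 0.59 for mt-Co3, -0.11 to 0.57 for mt-Nd3, -0.19 to 0.34 for mt-Nd4l, -0.42 to 0.40 for mt-Nd4, -0.28 to 0.35 for mt-Nd5, -0.42 to 0.17 for mt-Nd6, -0.45 to 0.44 for mt-Cytb and -0.28 to 0.47 for mt-Tp. The range of mt-Atp8 holds only the fits without anti-SIGLEC15 library 1 and without IgG library 2, since it failed the filter in the others.

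With the replicate number as a block, 0 genes were called, the share's log2 ratio was 0.04 and the median of the mRNAs 0.04; same-numbered libraries deviated together with a correlation of 0.33 over 12484 genes, but 2 pairs do not show that the numbers pair the samples. Depth limits mt-Atp8, mt-Tc and mt-Te.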

Other observations

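The genes whose profile over the 4 libraries lay nearest to the mean profile of the 13 mitochondrial mRNAs were sought among 6781 nuclear genes with a mean of at least 5 RPKM, by the root mean square distance of log2(RPKM + 1) centred on the gene's mean. The mean profile was -0.41 and 0.47 in anti-SIGLEC15 libraries 1 and 2, against -0.04 and -0.01 in IgG libraries 1 and 2. Of the nearest 5, Gm28437 (distance 0.069) and Gm28661 (0.091) are the nuclear copies of mt-Co3 and mt-Co2. The other 3 are protein-coding genes. Map3k1, a kinase upstream of the JNK pathway, lay nearest (0.063) with 9.09 and 15.5 RPKM in anti-SIGLEC15 libraries 1 and 2, against 11.3 and 11.9 RPKM in IgG libraries 1 and 2. Irak2, a kinase of interleukin-1 and Toll-like receptor signalling (0.088), measured 9.03 and 18.6 RPKM in anti-SIGLEC15 libraries 1 and 2, against 12.3 and 10.9 RPKM in IgG libraries 1 and 2. Vgll4, a cofactor that binds TEAD factors (0.106), measured 10.6 and 17.7 RPKM in anti-SIGLEC15 libraries 1 and 2, against 11.8 and 14.3 RPKM in IgG libraries 1 and 2. The distance rests on 4 libraries, so many genes can lie close.

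Transcripts poorly retained by poly(A) selection were looked at beside the mitochondrial rRNAs. Of the 16 replication-dependent histone genes, whose mRNAs end in a stem-loop, both anti-SIGLEC15 libraries lay above both IgG libraries for 7 and below them for 0, beside 12.1% and 6.02% of all tested genes, and limma called 0. The histone genes summed to 664 and 534 RPKM in anti-SIGLEC15 libraries 1 and 2, against 421 and 547 RPKM in IgG libraries 1 and 2. Most of each sum was Hist1h1c, with 384.7 and 302.4 RPKM in anti-SIGLEC15 libraries 1 and 2, against 294.6 and 307.5 RPKM in IgG libraries 1 and 2. The 4 tested small RNAs without a long poly(A) tail had 2 higher and 0 lower by the same measure, and their list summed to 73.4 and 56.5 RPKM in anti-SIGLEC15 libraries 1 and 2, against 19.1 and 46.6 RPKM in IgG libraries 1 and 2. Malat1, a long RNA kept in the nucleus, measured 46.0 and 39.2 RPKM in anti-SIGLEC15 libraries 1 and 2, against 30.9 and 42.5 RPKM in IgG libraries 1 and 2. In the sums of these lists and in Malat1 anti-SIGLEC15 library 1 was highest, while for mt-Rnr1 and mt-Rnr2 it was lowest. Not every tested member of these lists was highest there. Hist1h1b, Hist1h1d, Hist1h1e, Hist1h3b and Rnu12 were highest in anti-SIGLEC15 library 2, Hist1h2ac in IgG library 1 and Scarna2 in IgG library 2. Evenness of poly(A) selection was not tested. The 20 cytosolic ribosomal protein genes had 2 higher and 1 lower, near those shares, with a median log2 fold change of -0.00.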
